A study of Danio rerio with 4 samples.

Results

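The genes described here are those of the proteasome and of translation initiation, measured in the brain of zebrafish embryos of the foggy mutant line and of wild-type embryos. They were taken as every probe set on the Affymetrix zebrafish array with a single gene symbol that begins with psma to psmg and a digit, or with eif1 to eif6. The kinases of eIF2 and the binding proteins of eIF4E, which share the eif prefix, were left out. The rule gave 119 probe sets of 96 genes among the 15617 probe sets of the table, of which 61 probe sets (50 genes) were psm and 58 probe sets (46 genes) were eif. A probe set is a group of short probes that together read one transcript, and its signal is given in the scaled intensity units of the deposited table. Another 20 of the 116 symbols that match the rule in the RefSeq gene table of assembly GRCz12tu had no probe set of their own here and were not analysed here, among them psma3, psmd14, eif2s3, eif4g1a and eif4g1b.

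The study set 1 array of wild-type brain against 3 arrays of foggy brain. The wild-type label gives an age of 36 h, and the foggy labels give 36 with no unit, read here as hours. The foggy locus encodes Spt5 (supt5h), which binds RNA polymerase II and acts on its pausing and its elongation. The allele, the strain, the number of embryos pooled and whether the foggy samples came from separate clutches are not given in the labels, so the p-values below rest on a spread among samples that may be technical.

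The proteasome is a barrel-shaped protease that destroys proteins tagged with ubiquitin. Its core holds outer rings of alpha subunits (psma), which gate the entrance, and inner rings of beta subunits (psmb), some of which cut the chain. A regulatory cap of ATPases (psmc) and non-ATPase subunits (psmd) recognises, unfolds and feeds in the tagged protein. Translation initiation factors bring the initiator tRNA, the small ribosomal subunit and the messenger RNA together at the start codon, and the step at the cap of the messenger RNA is a known point of control. Both groups are needed in every cell and are abundant in growing embryonic tissue. A few genes caught by the rule do other work. The psmc3ip product acts in meiotic recombination, psme3ip1 encodes a partner of the activator psme3, eif4a3 belongs to the exon junction complex, and eIF5A acts mainly in elongation. The first 2 of these were described apart from the subunits below, but their probe sets are counted in the totals for the proteasome.

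Some properties of the series bear on all the values. For supt5h the wild-type signal was 210 and the foggy signals were 258, 245 and 254.5, a difference that did not pass the test (adjusted p = 0.137). Foggy arrays 2 and 3 were the closest pair (SD of their log2 differences 0.158, against 0.196 and 0.192 for the pairs with foggy array 1), and foggy array 1 was the farthest from the middle of the 3 at 51.4% of member probe sets and 44.7% of all tested ones. Of the 10 brain neuron markers measured, 1 was higher and 2 were lower, and their signals summed to 11059 for wild type and 11178 to 11269 for foggy. Of the 8 progenitor and radial glia markers, 1 was higher and 2 were lower (10412 against 9935 to 10080.0). Markers of other tissues differed more: 9 of 10 skeletal muscle genes and 6 of 6 tested red cell genes were lower (another 2 were dim), with summed signals of 5233 and 6645 in the wild type against 1815.0 to 1958 and 1579 to 1744 in the foggy arrays. Lower sums also stood in cartilage (2655 against 1504 to 1546), lens (5122 against 2963 to 3169.6) and photoreceptor and retinoid cycle genes (992 against 379 to 409.7). In these lists 3 of 4, 4 of 5 and 4 of 4 tested genes were lower. The last sum includes rlbp1a, a retinoid cycle gene, which read 362 in wild type and 189 to 191 in foggy. No marker probe set read 0 on any array. The part of these tissues in the differences of the proteasome and eif genes was not tested. In bulk tissue, fewer cells of a type and less RNA per cell cannot be told apart.

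The proteasome and initiation genes differed little between foggy and wild-type brain. Each probe set was compared on the log2 scale after adding a pseudocount of 16.252 units, and a fold change on this scale understates the change of weak signals. Of the 119 member probe sets 109 passed the filter on dim signals. Limma's test with Benjamini-Hochberg adjustment over all 10851 tested probe sets passed 4 of these 109, or 3.67%, and it passed 5.5% of all tested probe sets. They were psma5, eif4a1a and eif4e1c, which were lower in foggy, and eif3s10, which was higher. Over all tested probe sets 3.14% were lower and 2.36% higher. The share among the members is near that background and is not a result about the members as a class. At an unadjusted p under 0.05, 4 members were higher and 10 lower, beside 11.7% and 8.89% of all tested probe sets. A log2 difference over 0.2 in size was found in 17 of the 109 members and in 33.3% of all tested probe sets. No member had all 3 foggy arrays 2-fold or more from the wild type, a size reached by 0.59% of all tested probe sets.

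The differences of the members were narrow. Their median was 0.00 on the log2 scale, beside 0.02 for all tested probe sets, and the middle 50% ran from -0.07 to 0.07, beside -0.11 to 0.15. All members lay between -0.44 (eif3jb) and 0.35 (eif4a2). The members are bright, with a median signal of 500.7 against 115.6 for all tested probe sets, and bright probe sets are read with less error. Among the 3468 tested probe sets with a mean signal of at least 200, the middle 50% ran from -0.09 to 0.15 and 10.4% passed the test, while 4 of the 81 members at that signal passed. The 95% interval of the difference lay inside 0.5 on either side of 0 for 101 of the 109 members. This held for 7028 of all 10851 tested probe sets and for 2991 of the 3468 bright ones. The 95% interval assumes that the wild-type array varies as the foggy arrays do, and with 1 array against 3 the smallest exact permutation p is 0.25.

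**Figure D1:**
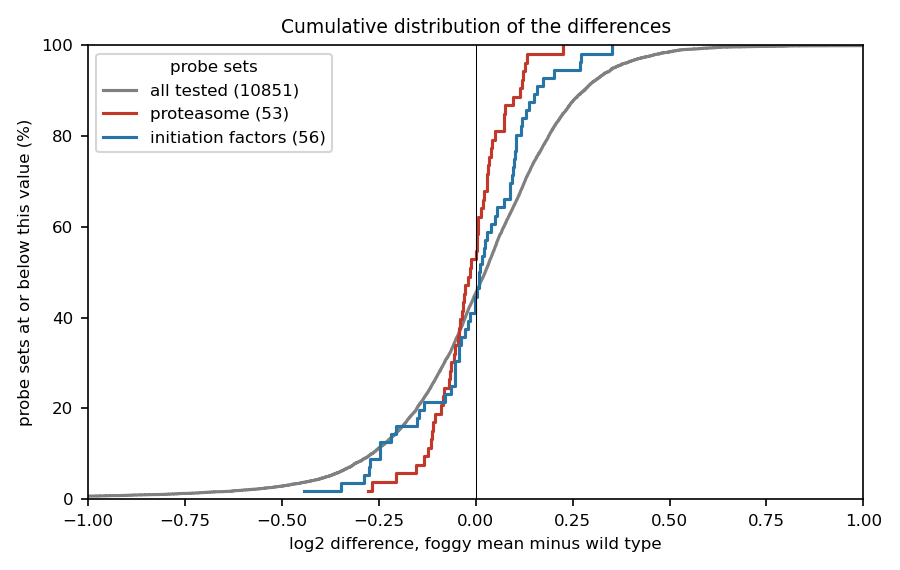
Cumulative share of probe sets (y axis, percent) at or below each log2 difference between the foggy mean and wild type (x axis, shown from -1 to 1), for all 10851 tested probe sets (grey), 53 proteasome probe sets (red) and 56 initiation factor probe sets (blue). Both member curves are steeper than the grey curve and cross it near 0, and the proteasome curve is the steeper of the 2. The red curve includes the 5 tested probe sets of psmc3ip and psme3ip1.

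The alpha ring of the proteasome core held 1 gene that passed, of 7 tested (14.3%). Of all tested probe sets 5.5% passed, and 10.4% of those with a mean signal of at least 200. A single call is not a result about the ring. The psma5 probe set, for an alpha subunit, gave 944 in wild type and 784, 770.4 and 792 in foggy arrays 1, 2 and 3. All 3 foggy arrays lay below the wild type and close together. The log2 difference was -0.27 (SE 0.0633, 1.20-fold lower, adjusted p = 0.0387 in limma). The call was lost without foggy array 2 (adjusted p = 0.0964) or 3 (0.103), and over its 12 alternatives the adjusted p ran from 1.56e-04 to 0.883. The other 6 tested alpha genes did not pass. The alpha subunit psma2b went from 977 to 975, 1085 and 1036 and had the highest difference of the ring (0.08), and psma8, the brightest, went from 1367 to 1328, 1306 and 1309 (-0.06). In 3 of 7 alpha probe sets the wild type lay outside the foggy arrays, always above them, beside 64.6% of all tested probe sets in either direction. The psma6l probe set was dim (33.1 in wild type, 14.4 to 32.7 in foggy) and was not tested.

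In the beta ring 0 of 8 tested probe sets passed limma's test, and 0 reached an unadjusted p under 0.05. The standard core has 3 catalytic subunits. At psmb5 and psmb6 the foggy arrays lay on both sides of the wild type, and at psmb7 all lay below it. The chymotrypsin-like subunit psmb5 gave 537 in wild type and 573, 509 and 556 in foggy. The caspase-like psmb6 read 989 and then 987, 1025 and 966. The trypsin-like psmb7, the brightest beta gene and the lowest difference, read 1769.5 and then 1758, 1549.5 and 1604 (-0.11, 95% interval -0.28 to 0.06). Foggy array 1 was near the wild type at psmb7 while foggy arrays 2 and 3 were lower. Without foggy array 1 the call appeared (adjusted p = 0.00331), in a setting that raised the calls over all tested probe sets. The highest difference was that of the structural subunit psmb1 (0.03, interval -0.11 to 0.16).

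The beta subunits that replace the catalytic ones in immune cells or under interferon gave little or no signal. The psmb8a probe set read 4.05 in the wild type and 2.28 to 3.92 in foggy, psmb9a 13.5 and 5.51 to 19.5, psmb12 18.8 and 12.9 to 24.2, and psmb13a 2.18 and 4.41 to 6.05. The filter on dim signals removed these 4, and they were not tested. In the GRCz12tu gene table psmb13a, psmb8a, psmb12 and psmb9a follow one another on the chromosome with no other protein-coding gene between them. The psmb10 probe set, of the same class, lay just over the filter (29.98 in wild type, 29.0 to 31.4 in foggy) and differed by 0.01.

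In the regulatory cap no probe set passed. Among the ATPases of its base 0 of 8 tested probe sets passed limma's test, and 1, of psmc1b, was lower at an unadjusted p under 0.05. Of these 8, 7 lay below 0, beside 4927 of all 10851 tested probe sets. Among the 7 are psmc2, at 0.00 when rounded, and the 2 tested probe sets of psmc1b. In 3 of the 8 all foggy arrays lay below the wild type and in 0 all lay above, beside 28.4% and 36.2% of all tested probe sets. The 5 genes psmc2 to psmc6 lay between -0.09 and 0.01, with psmc3 the brightest (1705 in wild type, 1619, 1633 and 1553 in foggy) and psmc6 the highest (1493, then 1483, 1524 and 1488). The duplicate gene psmc1b had the lowest difference. One of its probe sets gave 294 in wild type and 253, 230.0 and 237 in foggy (-0.28, SE 0.0906, adjusted p = 0.114), with no overlap. A further psmc1b probe set, which by its suffix shares probes with other transcripts, read 342 and then 343, 330.3 and 263 (-0.13, adjusted p = 0.616), and a faint one near 2 units was not tested. The first of these passed without foggy array 1 (adjusted p = 0.00482), where calls rose over all tested probe sets.

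Among the non-ATPase subunits of the cap 0 of 17 probe sets passed limma's test, and 0 reached an unadjusted p under 0.05. They ran from -0.12 to 0.13 with a median of 0.02. The group holds psmd1 and psmd2, the large scaffolds of the base, the ubiquitin receptor psmd4 in 2 copies, lid subunits such as psmd7, psmd8 and psmd12, and the assembly chaperones psmd5, psmd9 and psmd10. The psmd8 probe set, the brightest, gave 1199 for wild type and 1274.5, 1273 and 1240.5 in foggy (0.07). The lower end was psmd12, at 1043 and then 917, 972 and 984. The 2 probe sets of psmd1 differed by 0.12 and 0.13 but not in the same arrays. One gave 269 in wild type and 351, 268 and 267.5 in foggy, high in foggy array 1 alone. The other, which by its suffix shares probes with other transcripts, read 245 and then 236, 287 and 292, high in foggy arrays 2 and 3. The 2 probe sets had similar means from different arrays.

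Activators, the inhibitor and the assembly chaperones of the core were also without a call, with 0 of 8 tested probe sets passing limma's test and 0 at an unadjusted p under 0.05. The nuclear activator psme3 gave 463 in wild type and 411, 430 and 444 in foggy (-0.11). The core chaperones psmg2 and psmg3 marked the ends of the group. The psmg2 probe set read 214 and then 193, 179.6 and 179 (-0.21, 95% interval -0.42 to 0.01), all foggy arrays lower, and psmg3 read 295 and then 335, 311 and 304 (0.10). The interferon-linked activator psme1 was dim (4.97 to 12.8). Both probe sets of the inhibitor psmf1 overlapped between the groups. Of the partners kept apart, psmc3ip read 37.0 and then 43.0, 43.4 and 52.0 (0.23, interval -0.14 to 0.60), and the 4 probe sets of psme3ip1 differed by 0.01 to 0.12, with 0.12 in the brightest.

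**Figure D2:**
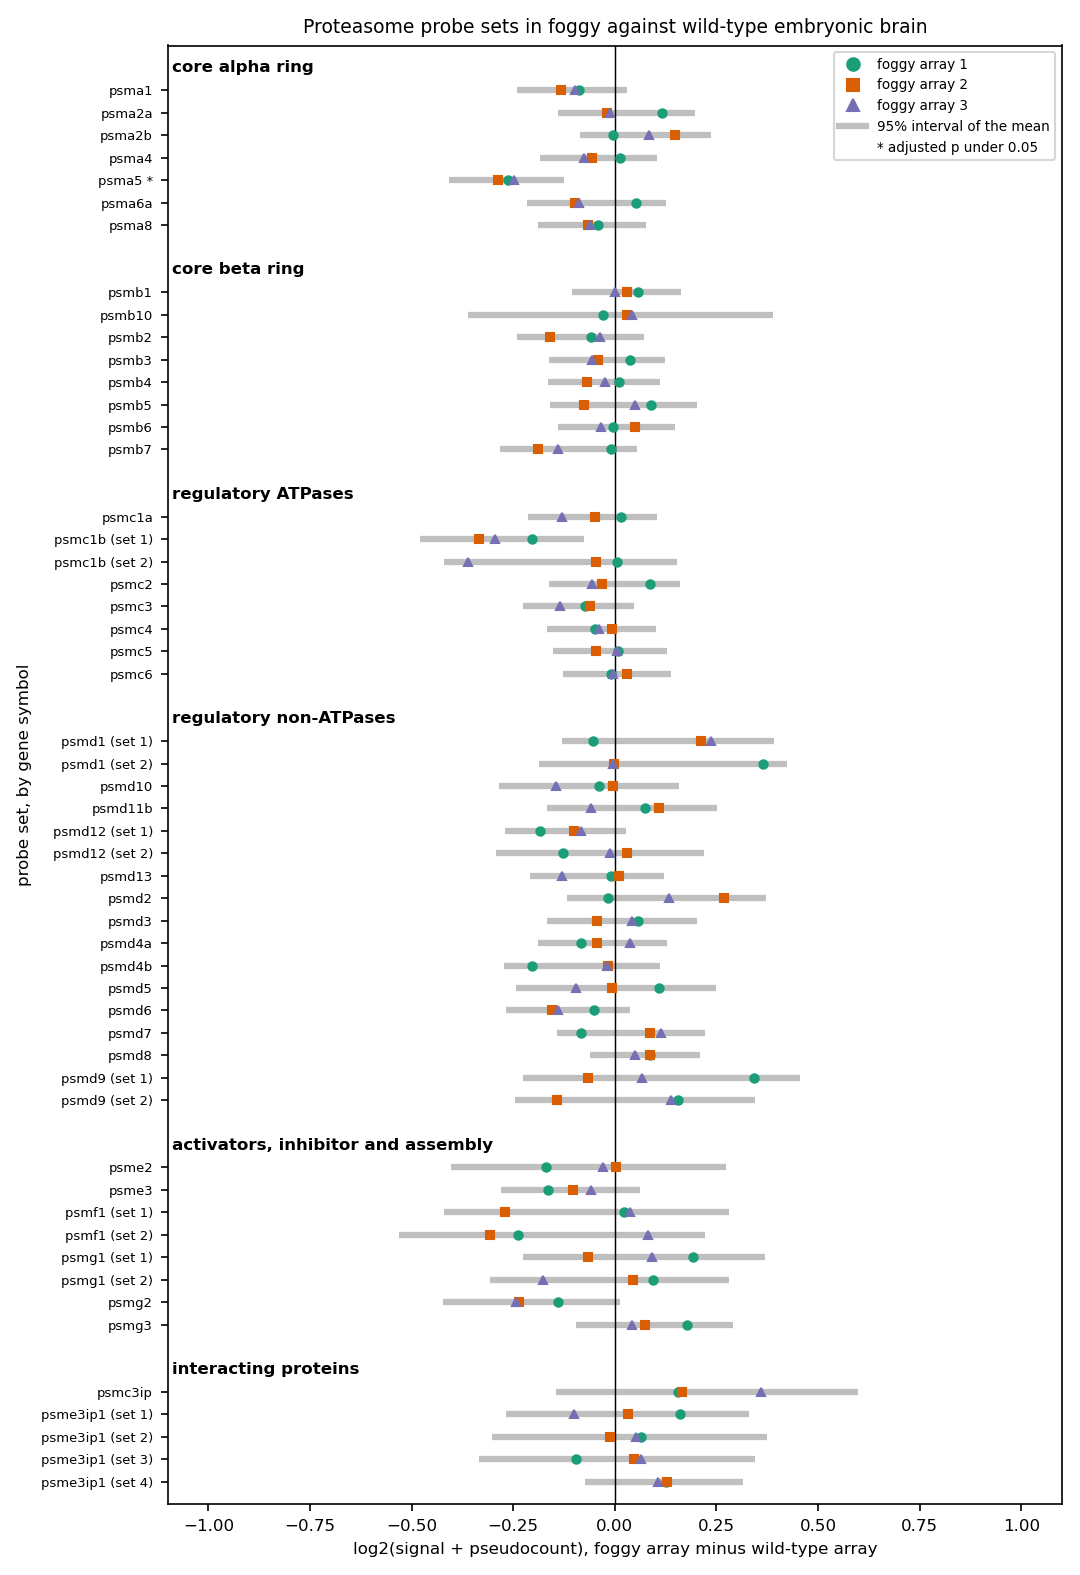
Log2 difference from the wild-type array (x axis) of each foggy array (green circles, orange squares and purple triangles for arrays 1, 2 and 3) for the 53 tested proteasome probe sets, by gene and group (y axis), with the 95% interval of the mean as a grey bar. The 53 include the 5 tested probe sets of psmc3ip and psme3ip1. A star marks psma5, the 1 probe set that passed, whose 3 points lie together near -0.27, while most intervals include 0.

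Taking the proteasome as a whole, the 53 tested probe sets had a median of -0.01 and a middle 50% from -0.07 to 0.04. Of these, 24 were above 0 and 29 below, beside 5924 and 4927 of all tested probe sets. The 53 include the 5 tested probe sets of psmc3ip and psme3ip1, which are not subunits. All 5 were above 0, and at 2 of them all foggy arrays lay above the wild type. The wild type lay outside the foggy arrays at 64.6% of all tested probe sets. Among those with a mean signal of at least 200 the share was 73.7%. For the proteasome probe sets it was 34%. These were 18 of the 53, with all foggy arrays below the wild type at 14 of the 53 and above it at 4 of the 53. Of all 10851 tested probe sets 3082 (28.4%) had all foggy arrays below and 3923 (36.2%) had all above. Leaving out foggy array 1 moved the count of calls from 1 to 5 of 53, of which 1 was higher. In the same setting the calls over all 10851 tested probe sets rose from 256 to 1179 higher and from 341 to 866 lower.

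Initiation factors spread somewhat more widely than proteasome subunits, and 3 of their 56 tested probe sets passed. That is 5.36%, next to the 5.5% of all tested probe sets. The median was 0.01 and the middle 50% ran from -0.06 to 0.10. Of the 56, 31 lay above 0 and 25 below, beside 5924 and 4927 of all tested probe sets. The wild type lay outside the foggy arrays at 62.5% of the 56, close to the 64.6% of all tested probe sets. These factors are bright, with a median signal of 491.8. Of all tested probe sets with a mean signal of at least 200 the wild type lay outside at 73.7%, and 10.4% passed. The difference in spread between the 2 classes was not tested.

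The eif1, eif2 and eif2b groups were without a call, with 0 of their 15 probe sets passing limma's test and 0 at an unadjusted p under 0.05. The scanning factor eIF1A is read by 5 probe sets of the duplicates eif1axa and eif1axb, which ran from -0.21 to 0.17. The brightest eif1axb probe set gave 1090.4 in wild type and 1018, 1097 and 1125 in foggy (-0.01), while a dimmer one read 370.4 and then 391.9, 433 and 436 (0.17), so that probe sets of this gene differed in sign. The brighter eif1axa probe set read 202 and then 172, 187 and 161.5 (-0.21). The eIF2 complex carries the initiator tRNA. Its beta subunit eif2s2 read 1082 and then 1187.5, 1041.5 and 1045.5, and the alpha subunit eif2s1b 719 and then 746, 687 and 695. The alternative factor eif2a read 114 and then 119, 133 and 118 (0.10). The exchange factor eIF2B, which reloads eIF2 with GTP, had 4 of 5 subunits above 0, beside 5924 of all 10851 tested probe sets. Its catalytic subunit eif2b5 read 157 and then 226.5, 149 and 180.2 (0.20, interval -0.19 to 0.59), highest in foggy array 1, eif2b2 read 565 and then 622, 568 and 595 (0.07), and eif2b3 180.5 and then 172, 178 and 169 (-0.05).

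Within eIF3, the scaffold that holds the small ribosomal subunit, 1 of 14 genes rose and 0 fell. That is 7.14%, beside 5.5% of all tested probe sets and 10.4% of those with a mean signal of at least 200. The share is near that background and is not a result about eIF3 as a group. The gene eif3s10, an older symbol for the large subunit a, gave 1083 in wild type and 1344, 1328 and 1256 in foggy. All 3 foggy arrays lay above the wild type. The log2 difference was 0.27 (SE 0.0651, 1.21-fold higher, adjusted p = 0.0410 in limma). The call was lost without foggy array 2 (adjusted p = 0.0907), without foggy array 3 (0.0661) and under cyclic loess (0.0601), and the adjusted p ran from 1.30e-04 to 0.896 over 12 alternatives. The WD-repeat subunit eif3i read 2064 and then 2279, 2341 and 2295 (0.16, adjusted p = 0.154), above the wild type in each array without passing. The brightest subunit gene, eif3ea, read 3002 and then 3093, 2973 and 2996 (0.01). The other end was eif3jb, for the loosely bound subunit j, at 169 and then 131, 119 and 111 (-0.44, SE 0.121, adjusted p = 0.0661). It passed without foggy array 1 (adjusted p = 0.00176), where calls rose over all tested probe sets.

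The eIF3 subunits e, h and j are each read as a pair of gene copies, and in each pair the b copy was lower in foggy relative to the a copy. The gap between the copies in log2 difference was -0.28 for eif3e, -0.31 for eif3h and -0.53 for eif3j. It had the same sign in every foggy array, from -0.21 to -0.39 for eif3e, -0.26 to -0.40 for eif3h and -0.39 to -0.64 for eif3j. These values all share the 1 wild-type array and are not independent. The pairs of eif1ax, eif4a1 and eif4g2 also kept 1 sign in every foggy array, and the share of all pairs on the array that do so was not counted. The b copies were dimmer than the a copies, with mean signals of 69.7 against 3016, 124 against 676 and 132.6 against 560. The eif3eb probe set read 82.5 and then 61.5, 68.5 and 66.1, and eif3hb read 146 and then 109, 119 and 122. Neither passed by itself (adjusted p = 0.308 and 0.197). The a copies stood at 0.01, 0.02 and 0.09. These gaps were noticed in the data and have no test. Among all 11 member pairs whose symbols end in a and b the median size of the gap was 0.12, and over 480 such pairs on the array it was 0.17, the largest being 1.40. Copies of similar sequence may share part of a signal.

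**Figure D3:**
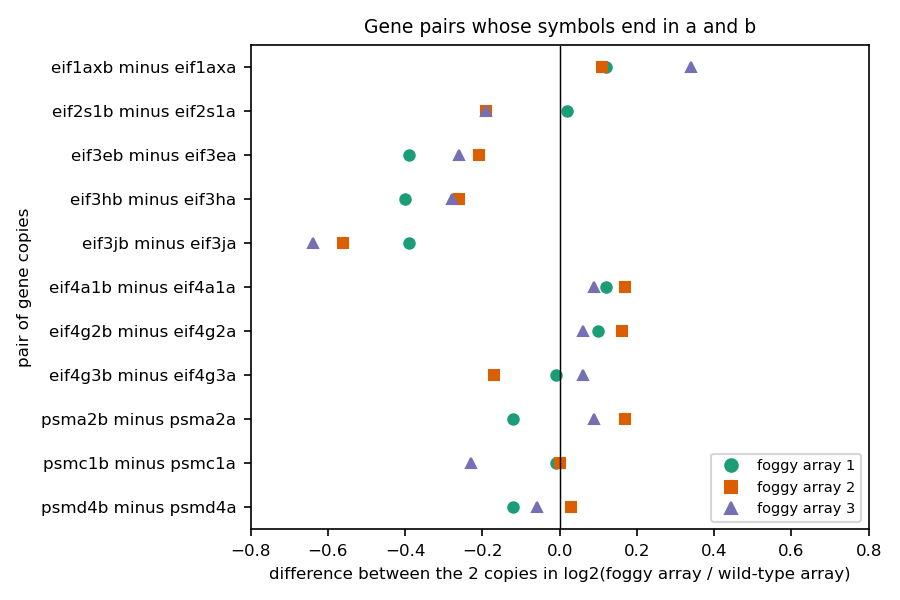
Difference between the 2 copies of a gene pair in their log2 change against the wild-type array (x axis, b copy minus a copy, brightest probe set of each), for each foggy array (green circles, orange squares and purple triangles for arrays 1, 2 and 3) and the 11 pairs (y axis). The 9 points of eif3e, eif3h and eif3j all lie at or below -0.21, and 5 of the other 8 pairs have points on both sides of 0 or touching it.

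The eIF4 group, which works at the cap, held 2 of the 3 calls, both lower. Its members bind the cap (eIF4E), unwind the leader of the messenger RNA (eIF4A with its helpers eIF4B and eIF4H) and join these to the ribosome (eIF4G). Of 19 tested probe sets 2 fell, 0 rose and 17 did not pass, with a median of -0.04. Of all tested probe sets 5.5% passed, and of those with a mean signal of at least 200 the share was 10.4%. At an unadjusted p under 0.05, 5 were lower and 2 higher, beside 8.89% and 11.7% of all tested probe sets. The wild type lay outside the foggy arrays at 73.7% of the group, beside 64.6% of all tested probe sets and 73.7% of those with a mean signal of at least 200. By calls and by overlap the group was near the background of bright probe sets. At an unadjusted p under 0.05 in limma, 428 of those 3468 bright probe sets were lower and 696 higher. The group held a larger share of lower ones and a smaller share of higher ones, and this was not tested.

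Among the helicase genes 1 probe set passed, which is 1 of those for eif4a1a. It gave 2103 in wild type and 1737, 1733 and 1739.9 in foggy, the tightest trio among the members that passed. The log2 difference was -0.27 (SE 0.0577, 1.21-fold lower, adjusted p = 0.0239 in limma). The second eif4a1a probe set, whose name shares a number with the first, read 1499 and then 1308, 1277 and 1269.5 (-0.22, adjusted p = 0.0657) and fell short. The duplicate eif4a1b read 1627 and then 1458, 1515 and 1433 (-0.15, adjusted p = 0.214). The eif4a2 gene, a further helicase gene prominent in mammalian brain, read 254 and then 307, 329 and 349.7. All 3 foggy arrays lay above the wild type, with a log2 difference of 0.35 (SE 0.091, 95% interval 0.15 to 0.56) that missed the threshold (adjusted p = 0.0548). It passed without foggy array 1 (1.93e-04), where calls rose over all tested probe sets. The exon junction helicase eif4a3 read 905 and then 919, 901 and 918 (0.01). The eif4a1a call was lost without foggy array 2 (adjusted p = 0.0676) or 3 (0.108), with a range over 12 alternatives of 3.91e-06 to 0.739.

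Among the cap-binding genes eif4e1c, a copy of eIF4E found in fish, was the one lowered. Its first probe set gave 507 in wild type and 407, 388 and 389 in foggy. Its second, the brighter by mean signal, read 549 and then 461, 471 and 451. Both probe sets were below the wild type in every foggy array. The first differed by -0.35 (SE 0.0741, 1.27-fold lower, adjusted p = 0.0243 in limma) and the second by -0.25 (SE 0.071, adjusted p = 0.0799). Of the 4 calls that of eif4e1c held in most alternatives, 9 of 12, and was lost without foggy array 3 (adjusted p = 0.0529), with a range from 6.66e-05 to 0.739. The setting with 1 probe set per gene is not among the 12. It keeps the brightest probe set, which for eif4e1c is the second, so the eif4e1c call was lost there. The other cap-binding genes lay nearer 0. The eif4ea probe set read 221 and then 227, 266 and 232 (0.12), those of eif4e3 differed by 0.00 and -0.05, and eif4e1b, a germline form, was dim (8.19 in wild type, 3.17 to 5.72 in foggy). Whether eif4e1c differed from eif4ea in its change was not tested.

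**Figure D4:**
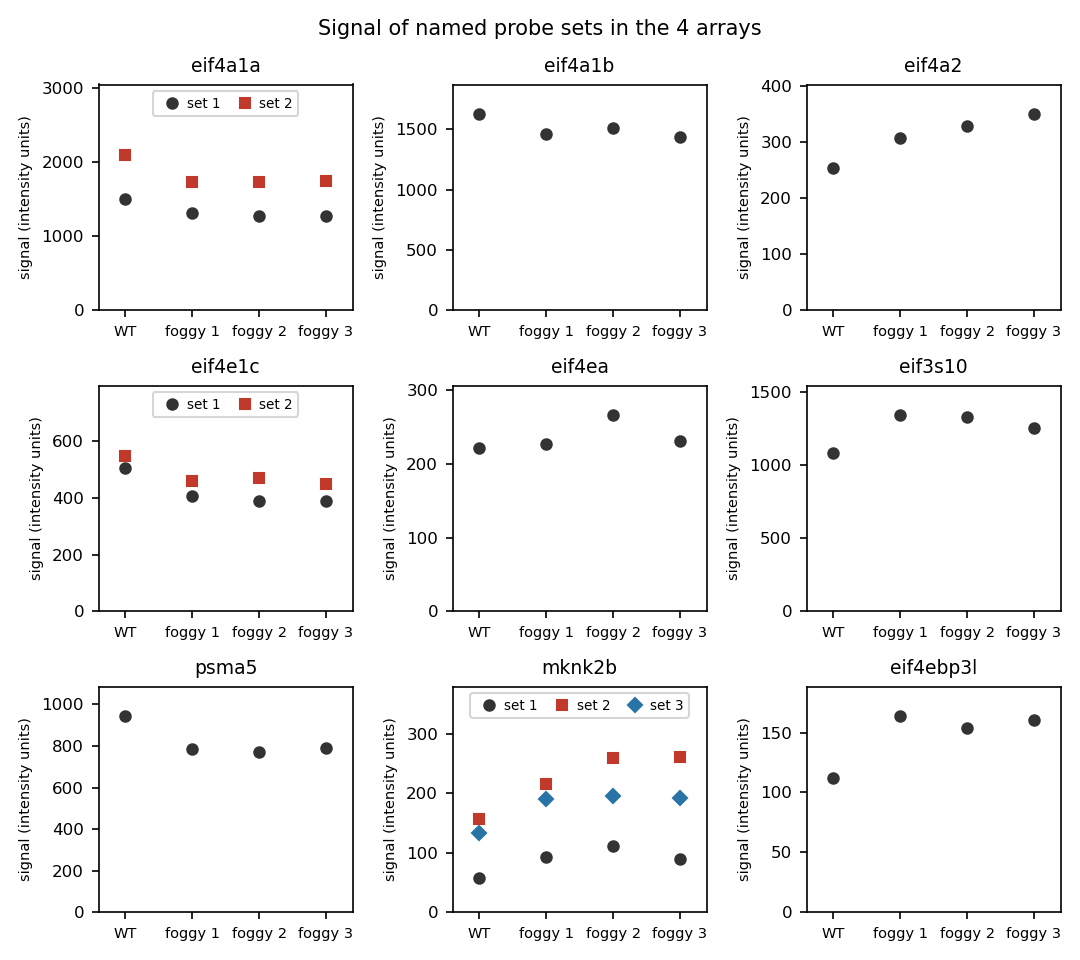
Signal in intensity units (y axis, from 0) in the wild-type array and the 3 foggy arrays (x axis) for named probe sets, 1 panel a gene, with colours and shapes for the tested probe sets of a gene in order of name. The eif4a1a, eif4a1b, eif4e1c and psma5 points are lower in all 3 foggy arrays, those of eif4a2, eif3s10, mknk2b and eif4ebp3l are higher, and eif4ea is shown beside eif4e1c as a gene without a call.

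Scaffolds and helpers of the cap complex gave no call. One probe set of eif4g2a, a scaffold that works without the cap-binding protein, read 431 and then 490.0, 566 and 516 (0.27, adjusted p = 0.107), and another read 831 and then 869, 798 and 822 (0.00), so that the probe sets of this gene did not agree. The helicase helper eif4h read 278 and then 251, 246 and 251 (-0.15), and eif4bb differed by -0.08.

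Among the late factors no probe set passed. Of 7 eif5, eif5a and eif5b probe sets 0 passed limma's test and 1 was lower at an unadjusted p under 0.05. That was an eif5a2 probe set at 2116 and then 1906, 1723 and 1719 (-0.25, SE 0.0723, adjusted p = 0.0828), while the brighter eif5a2 probe set read 3413 and then 3351, 3323 and 3257 (-0.04). The first passed under quantile normalization and cyclic loess and without foggy array 1, with a range of 1.08e-06 to 1 over 12 alternatives. The paralogue eif5a read 3092 and then 3226, 3308 and 3363 in its brighter probe set (0.09). That probe set passed without foggy array 1 (adjusted p = 0.0195), where calls rose over all tested probe sets. The eif6 probe set, for the factor that keeps the large ribosomal subunit apart until it is needed, read 266 and then 330.5, 255.5 and 309 (0.15), and its groups overlapped.

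**Figure D5:**
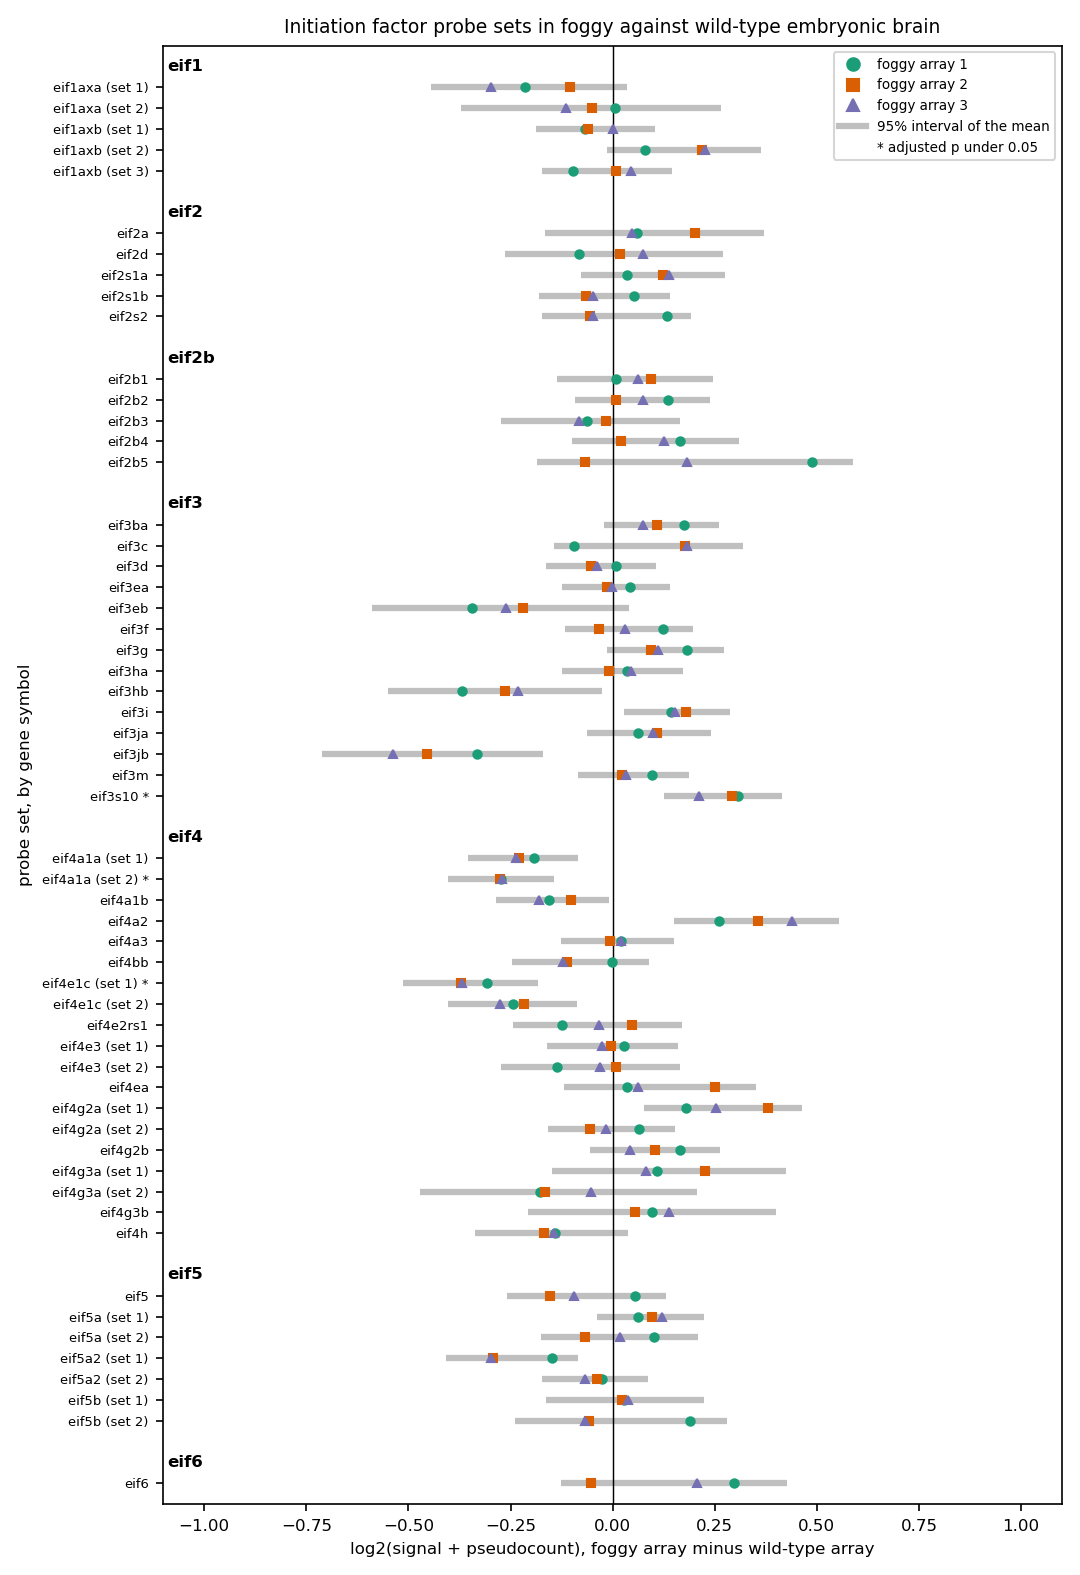
Log2 difference from the wild-type array (x axis) of each foggy array (green circles, orange squares and purple triangles for arrays 1, 2 and 3) for the 56 tested initiation factor probe sets, by gene and group (y axis), with the 95% interval of the mean as a grey bar. Stars mark the 3 that passed, eif3s10 to the right of 0 and 1 probe set each of eif4a1a and eif4e1c to the left, and eif3jb and eif4a2 lie farthest from 0.

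Genes that work with these complexes showed calls in 1 of 3 lists. Of 22 tested probe sets of ubiquitin and proteasome partners 0 passed limma's test, with 2 higher and 2 lower at an unadjusted p under 0.05 and a median of -0.01. The core maturation factor pomp read 1378 and then 1386, 1251.5 and 1282, and the cap subunit sem1 949 and then 944, 1054.0 and 993 in its brighter probe set. Of 43 tested probe sets of translation partners 0 passed, with 3 higher and 5 lower unadjusted and a median of -0.02. That list holds elongation, termination and poly(A)-binding genes and also others, such as ddx3xa, denr, mcts1 and pdcd4a. Over all tested probe sets 11.7% were higher and 8.89% lower at an unadjusted p under 0.05.

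In the list of initiation kinases, inhibitors and the amino acid response, 4 of 22 tested probe sets rose, 0 fell and 18 did not pass, where 2.36% of all tested probe sets were higher and 3.14% lower. The median of the list was 0.20 beside 0.02 for all tested probe sets. At an unadjusted p under 0.05 in limma, 8 were higher and 1, of chac1, was lower, beside 11.7% and 8.89% of all tested probe sets. The tested chac1 probe set differed by -0.23, the brighter asns one by 0.30 and those of ppp1r15a by 0.15 to 0.37, without a call. The 4 calls belong to 2 of the 16 tested genes of the list, both acting on eIF4E, and 3 of the 4 are probe sets of mknk2b. The list was chosen with earlier results of these data known. Its share of calls and its median are therefore not a result about the list as a class. The kinase gene mknk2b, whose product phosphorylates eIF4E, was higher at all 3 of its probe sets. The brightest went from 156 in the wild type to 215, 259 and 262 in foggy (0.59, SE 0.117, adjusted p = 0.0179), the next 133.5 and then 190.1, 195 and 191 (0.48, adjusted p = 0.0201), and the dimmest 57.8 and then 93.0, 112 and 89.5 (0.62, adjusted p = 0.0401). No foggy array overlapped the wild type at any of them. The dimmest lost its call in 4 of 12 alternatives, among them without foggy array 2 (adjusted p = 0.0768), with a range from 0.00167 to 0.885. The other 2 lost theirs in 2 of 12, without the variance trend and with a wild-type SD 2 times that of foggy, with ranges from 6.89e-07 to 0.668 for the brightest and 5.00e-04 to 0.701 for the next. The second copy mknk2a, singled out after its values were seen, gave 4.198 in wild type and 28.9, 27.0 and 29.5 in foggy. It was removed as dim, and without that filter its difference was 1.13 (adjusted p = 0.0188). The eIF4E-binding repressor gene eif4ebp3l read 112 and then 164, 154 and 161 (0.45, SE 0.106, adjusted p = 0.0361), a call lost in 5 of its 12 alternatives, among them without foggy array 3 (adjusted p = 0.0656), with a range from 0.00401 to 0.859. Its relatives eif4ebp1 (0.20, adjusted p = 0.117) and eif4ebp2 (0.07) did not pass, nor did the stress factor genes atf4a (0.09) and atf4b (0.11).

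The 4 member calls depend on how the single wild-type array is taken. With its SD assumed to be 2 times that of the foggy arrays 0 of the 109 members passed, and 0 passed with limma's variance trend left out. Of the 17 genes read by several tested probe sets, 13 had no probe sets of opposite sign. Each of the 4 calls lay between 1.20-fold and 1.27-fold in size.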

How the data were processed

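Signals of the 4 arrays came from the series table, which the authors deposited as linear intensity values per probe set. How probes were summarised and background was corrected is not given in the sources used here. Every array has a mean of 150.03 after trimming 2% at each end, so the authors' scaling was kept, and each difference is therefore one against the rest of the transcripts measured. Comparing arrays found 0 identical values. Symbols came from the platform's annotation through the gene number, which matched for all 119 members. The 115 control probe sets were left out. A pseudocount of 16.252 (20th percentile of the signals on these arrays) preceded the log2 step, and the 4651 probe sets under the 30th percentile of mean log2 value were removed as dim, which left 10851. The tool was limma 3.58.1 under R 4.3.3, using lmFit and then eBayes with a variance trend, two-sided, with Benjamini-Hochberg adjustment over all of them and a threshold of 0.05. Residual spread is that of the foggy arrays, wild type having 1 array (2 residual and 7.89 prior degrees of freedom). Precision is limited by the number of arrays. The fit was tested on simulated data in which the wild-type array had the same spread as the foggy arrays. That test therefore cannot show whether the real wild-type array varies as they do.

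Genes were named where a probe set passed, where they were the brightest, highest or lowest of their group, or where they passed in the lists of related genes, up to 4 a list; other genes were added for their role or after their values were seen. Signals were compared between arrays and not between probe sets. The members and lists were chosen with earlier results of these data known. The alternatives were pseudocounts of 5 and 50, no filter and a filter at the 50th percentile, quantile, median and cyclic loess normalization, no variance trend, a wild-type SD 2 times that of foggy, leaving out each foggy array, and 1 probe set per gene.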

Additional observations from a re-analysis of the deposited data

How the results depend on the processing

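No paired analysis was possible because wild type has 1 array and the groups share only 1 replicate number. No named result that passed the test was reversed in any of the settings tried. Among proteasome probe sets the 1 lower call became 0 without the filter on dim probe sets, without the variance trend and with the wild-type SD 2 times the foggy SD, and leaving out 1 foggy array gave 0 to 4 lower and 0 to 1 higher. Among initiation factors the 1 higher call became 0 in those same 3 settings and under cyclic loess. Their 2 lower calls became 4 under quantile normalization and cyclic loess, 0 without the variance trend and with the larger wild-type SD, and 1 with 1 probe set per gene. Leaving out 1 foggy array gave 0 to 7 higher and 0 to 7 lower, the top of each range being without foggy array 1. Over all tested probe sets the 256 higher and 341 lower became 129 higher without the filter, 27 and 137 without the variance trend, 3 and 44 with the larger wild-type SD, and 213 to 1179 higher and 344 to 866 lower with 1 foggy array left out. The median moved from -0.013 to -0.046 for the proteasome and from 0.011 to -0.021 for initiation factors under cyclic loess, where the median of all tested probe sets went from 0.02 to 0.00. Counting psmc3ip with the ATPases, an alternative chosen after seeing the data, moved their median from -0.043 to -0.032. Subunits with signals near the pseudocount were mostly removed by the filter and have no test in the values reported. The cause of these shifts was not tested.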
